A study of Mus musculus with 36 samples.

Results

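Mouse nephron progenitor cells (NPCs) that received guides against all 4 genes of the Tcf/Lef family and were then moved to a high dose of CHIR99021 (CHIR) were compared with control NPCs kept in a low dose, over 6 of the 36 RNA-seq libraries of the series. CHIR inhibits the kinase GSK3β and so stabilizes β-catenin. The NPCs of these 6 libraries were primary cells from embryonic kidneys of Cas9-eGFP mice, grown in nephron progenitor expansion medium and sorted for co-transfected mCherry. Libraries of wild-type NPCs and of NPCs with a conditional *Ctnnb1* allele (*Ctnnb1* c/c), from other tables of the series, are used further below. The 3 control low CHIR libraries carried a guide to GFP, had a knockout period in low CHIR, and were then cultured at 1.25 µM CHIR. The 3 quadruple knockout (QKO) high CHIR libraries carried guides to *Tcf7*, *Tcf7l1*, *Tcf7l2* and *Lef1*. They had the same knockout period in low CHIR and were then cultured at 5 µM CHIR. The comparison therefore differs in both CHIR dose and guides, and on its own cannot tell these apart. The same table held 3 control high CHIR libraries (GFP guide, 5 µM) and 2 QKO low CHIR libraries (Tcf/Lef guides, 1.25 µM). Control high CHIR values are given beside the comparison for many genes. Those of QKO low CHIR are given for a few genes, as counts of called genes and in the figures of single genes. Of 26472 genes listed, 15878 averaged 10 or more normalized counts over the 11 libraries and were tested. Fold changes are given as log2 with their standard error (SE), and the values of a group in the order of its replicate numbers.

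In the nephrogenic niche, NPCs either renew themselves in the cap mesenchyme or leave it, condense and turn into the epithelium of the renal vesicle. Stabilized β-catenin has no DNA-binding domain of its own and reaches its target genes through the Tcf/Lef proteins. Without β-catenin these proteins can repress the same genes, *Tcf7l1* being the member best known as a repressor, while *Lef1* is itself a classic target of the pathway. In culture, low CHIR maintains *Six2*-expressing progenitors and high CHIR brings on an inductive program that includes the ligands *Wnt4* and *Jag1*. The question this comparison addresses is how far a population of NPCs given Tcf/Lef guides still moves away from the self-renewing state when CHIR is raised.

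3 of the 4 guides could be placed whole in the transcripts of GENCODE vM21, and their sites are shown because they say what the QKO cells were meant to lose. The protospacer is in lower case and the 3 bases of the PAM, which Cas9 needs beside its site, are in capitals.
Tcf7 guide: agctgggggacgccatgtggAGG
Tcf7l1 guide: cttaaaaaaagcgccatcctGGG
Tcf7l2 guide: ttagcggccaagaggcaagaTGG
On GRCm38, the *Tcf7* site was at chr11:52261584-52261603 (+), antisense to the gene, in coding sequence of exon 3 in 2 of 2 transcripts. The *Tcf7l1* site was at chr6:72788307-72788326 (+), also antisense, in exon 3 and within coding sequence in 3 of 5 transcripts. The *Tcf7l2* site was at chr19:55743069-55743088 (+), in the sense direction, and 16 of 22 transcripts had an exon there. Only Tcf7l2-217 held the whole site, in its exon 1 and outside its coding sequence. Whether the site touches coding sequence in the other transcripts with an exon there was not checked. According to the paper, guides were chosen to hit early coding exons. The *Lef1* spacer was not found whole in any of its 8 transcripts, so its site is not given.

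The mRNA level of a gene cut by Cas9 does not report the edit, since small insertions and deletions can leave the transcript in place. In the paper, protein staining after single guides showed a partial loss, smallest for Tcf7, and the QKO used less of each guide. A QKO library can thus mix cells with and without each protein, which bulk RNA does not separate. *Tcf7* (ENSMUSG00000000782, chr11:52252371-52283014) was at 220.1, 220.1 and 141 normalized counts in control low CHIR replicates 1, 2 and 3, and at 109.5, 179.7 and 127 in QKO high CHIR (log2 -0.48 ± 0.31 SE, limma adjusted p = 0.375). *Tcf7l1* (ENSMUSG00000055799, chr6:72626378-72789254) was at 2225, 1774 and 1736 in control low CHIR and at 602, 539 and 736 in QKO high CHIR (log2 -1.61 ± 0.19 SE, limma adjusted p = 0.00041). The *Tcf7* groups overlapped, whereas the *Tcf7l1* groups lay well apart. *Tcf7* in control high CHIR was at 534, 535 and 268, above every QKO high CHIR value (log2 -1.64 in QKO against control, limma adjusted p = 0.0175), and in QKO low CHIR at 66.2 and 97.7. *Tcf7l1* was also low in control high CHIR, at 612, 486 and 591, and in the 2 QKO low CHIR libraries, at 827 and 1286. *Tcf7l2* (ENSMUSG00000024985, chr19:55741820-55933654) stood at 1622, 1949 and 1873 against 999, 1616 and 1481, and did not pass (log2 -0.44 ± 0.22 SE, limma adjusted p = 0.243). The fourth target, *Lef1* (ENSMUSG00000027985, chr3:131110471-131224356), went the other way and rose from 119.9, 25.7 and 19.9 to 255, 441 and 513 (log2 3.25 ± 0.65 SE, limma adjusted p = 0.0105). All 3 QKO high CHIR values of *Lef1* were above the control low CHIR values and below the control high CHIR values of 1504, 2743 and 1144. The call on *Lef1* was lost without control low CHIR replicate 2 (adjusted p = 0.0554) and without QKO high CHIR replicate 2 (adjusted p = 0.0534), with log2 fold changes of 2.95 and 3.16.

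Depth was 13089780 to 20152719 reads on genes per library, and 16416495 to 19117054 in QKO high CHIR. In a principal component analysis the first component took 45.6% of the variance and placed QKO high CHIR at 4.9, 28.6 and 32.6. Control low CHIR was at -66.5, -56.3 and -32.9 and control high CHIR at 47.0, 71.1 and 69.4. Control low CHIR replicate 3 thus lay nearest to the high CHIR libraries among its group, and leaving it out changed many of the counts below. The 13 NPC markers summed to 29674 to 35215 normalized counts in control low CHIR and 17138 to 19329 in QKO high CHIR. Markers of other kidney cells moved as well. The ureteric epithelium list summed to 329 to 388 against 628 to 935, with *Ret* and *Wnt11* near 0. The endothelium list summed to 933 to 1383 against 363 to 600, with *Plvap* the largest part of it in every library, at 1333, 1188 and 898 against 257, 424 and 471, and with *Kdr* and *Cdh5* near 0. Of its 5 tested members *Plvap* fell and *Cldn5* and *Tek* rose, *Cldn5*, a tight junction gene, from 2.45, 2.96 and 0.865 to 47.8, 81.02 and 45.3 (log2 4.28 ± 0.58 SE, limma adjusted p = 0.00116) and *Tek*, the angiopoietin receptor, from 2.45, 0 and 1.73 to 13.04, 54.01 and 48.2 (log2 3.99 ± 0.64 SE, limma adjusted p = 0.00326). Of 4 tested ureteric markers *Krt18* and *Hoxb7* rose (3 with the replicate block), and of 7 stromal markers *Meis1* fell (1 rose and 3 fell with the block). *Hoxb7*, a homeobox gene, went from 285, 356 and 280.1 to 425, 656 and 638 (log2 0.88 ± 0.22 SE, limma adjusted p = 0.0369) and lost its call when any of 4 single libraries was left out. *Meis1*, also a homeobox gene, went from 1146, 1613 and 2966 to 873, 614 and 632 (log2 -1.34 ± 0.28 SE, limma adjusted p = 0.014) and lost its call without QKO high CHIR replicate 2 or 3. The stroma list ranged from 3259 to 8660 in control low CHIR and from 1227 to 8208 in QKO high CHIR, the highest in each group being replicate 1, with *Foxd1* near 0. The part of these cells in the results below was not tested. In bulk RNA, fewer cells of a type cannot be told apart from less RNA per cell. The labels do not say whether replicates were separate litters or cultures, so p-values measure the spread between these libraries.

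In QKO high CHIR, 640 genes were higher and 442 lower than in control low CHIR, which was 4.03% and 2.78% of the genes tested (limma, Benjamini-Hochberg adjusted p under 0.05, and a change of 0.5 or more in log2). With the replicate number as a block, 1311 were higher and 1141 lower, 8.26% and 7.19%, and these held all 1082 genes called without it. The median log2 change over all genes tested was 0.0087. In the same fit, control high against control low CHIR gave 1108 higher and 1264 lower genes, 6.98% and 7.96%, and QKO high against control high CHIR gave 326 higher and 78 lower, 2.05% and 0.491% (841 and 340, or 5.3% and 2.14%, with the block). The response to CHIR itself differed between QKO and control cells for 17 genes above and 3 below 0 (interaction term, 0.107% and 0.0189%), and for 98 and 38 with the block (0.617% and 0.239%). QKO low against control low CHIR gave 1 higher gene in limma, 0.0063%, and 0 lower (349 and 221 by unadjusted p under 0.05 and a change of 0.5 or more in log2). With the block there were 15 and 1, 0.0945% and 0.0063%. In edgeR there were 1 and 0, and in DESeq2 22 and 2, from only 2 QKO libraries. These comparisons share libraries, so their counts are set side by side and not compared by a test. Leaving out control low CHIR replicate 3 raised the counts in QKO high CHIR to 1326 higher and 1469 lower. Leaving out QKO high CHIR replicate 2 cut them to 298 and 182, and without all libraries numbered 1 they were 420 and 156.

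**Figure D1:**
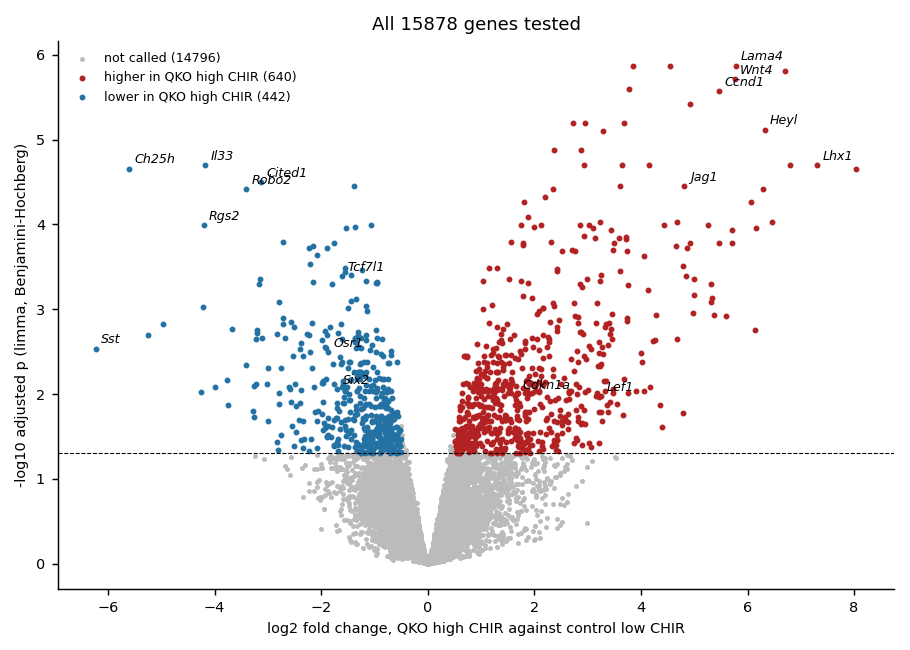
Each point is 1 of 15878 genes, with its log2 fold change in QKO high against control low CHIR on the x axis and -log10 of the limma adjusted p on the y axis, and the genes past both thresholds in colour. The 640 higher genes reach farther from 0 than the 442 lower genes, and *Lhx1*, *Wnt4* and *Ccnd1* are among the named genes on the right.

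Most self-renewal genes fell. Of the 7 members of the self-renewal list, 5 fell (6 with the replicate block), where 2.78% of all genes tested did (7.19% with the block). The list's median was -1.70 in log2. In control high CHIR all 7 fell, with a median of -4.06. *Six2* (ENSMUSG00000024134, chr17:85684277-85688274), the transcription factor that keeps NPCs undifferentiated, was at 3148, 2502 and 1206 normalized counts in control low CHIR and 665, 607 and 685 in QKO high CHIR (log2 -1.70 ± 0.33 SE, limma adjusted p = 0.00875). In control high CHIR it was at 246, 137 and 271, below every QKO high CHIR value. *Cited1* (ENSMUSG00000051159, chrX:102247381-102252181), a co-regulator restricted to uninduced cap mesenchyme, went from 5775, 6182 and 4179 to 465, 553 and 859 (log2 -3.13 ± 0.26 SE, limma adjusted p = 3.18e-05). The QKO high CHIR libraries again lay between the controls, which were at 167, 165 and 215 in high CHIR. *Osr1* (ENSMUSG00000048387, chr12:9570116-9581500), an early factor of the nephric mesenchyme, fell from 1222, 1017 and 1636 to 402, 258 and 392 (log2 -1.88 ± 0.30 SE, limma adjusted p = 0.00321). *Meox2* (ENSMUSG00000036144, chr12:37108540-37179534), a homeobox gene of uninduced progenitors, fell from 2030.2, 2485 and 2385 to 606, 541 and 692 (log2 -1.91 ± 0.30 SE, limma adjusted p = 0.00288). Control high CHIR held 104, 52.6 and 77.6 for *Osr1* and 79.9, 70.8 and 191 for *Meox2*, so for both genes no library of one group reached into another. *Eya1* (ENSMUSG00000025932, chr1:14168954-14310235), the co-activator that binds *Six2*, fell from 4488, 5579 and 6224 to 2021, 1632 and 2174 (log2 -1.48 ± 0.29 SE, limma adjusted p = 0.00994), a call lost without QKO high CHIR replicate 2 (log2 -1.36, adjusted p = 0.0578).

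Neither of the other 2 members passed. *Tmem100* (ENSMUSG00000069763, chr11:90030348-90036508) was at 1701, 1825 and 1616 in control low CHIR and 1553, 571 and 516 in QKO high CHIR (log2 -1.15 ± 0.33 SE, limma adjusted p = 0.0578), with replicate 1 close to the control level and replicates 2 and 3 far below it. With the replicate block its adjusted p was 0.0181. Control high CHIR held 102, 74.8 and 104, under every QKO value. *Meox1* was low in every library, at 31.8, 23.7 and 13.8 against 14.8, 16.6 and 19.3, and the groups overlapped (log2 -0.36 ± 0.39 SE, limma adjusted p = 0.6).

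Against control high CHIR, 6 of the 7 self-renewal genes were higher in the QKO cells (limma, adjusted p under 0.05, where 2.05% of all genes were). The differences were 1.64 for *Six2* (adjusted p = 0.0226), 1.73 for *Cited1* (0.0039), 2.18 for *Osr1* (0.00288), 2.56 for *Meox2* (0.00126), 3.04 for *Tmem100* (0.000863) and 1.74 for *Meox1* (0.0381), all in log2. *Eya1* differed by 0.90 and did not pass (adjusted p = 0.16), except with the replicate block (adjusted p = 0.0283), where all 7 were higher. *Sall1*, a zinc-finger factor of the progenitors that is outside the list, averaged 5962 in control low CHIR and 5756 in QKO high CHIR and did not pass (log2 -0.052 ± 0.16 SE, limma adjusted p = 0.869). *Wt1*, expressed in progenitors and later in podocytes, averaged 1113 against 932 (log2 -0.17 ± 0.33 SE, limma adjusted p = 0.792).

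**Figure D2:**
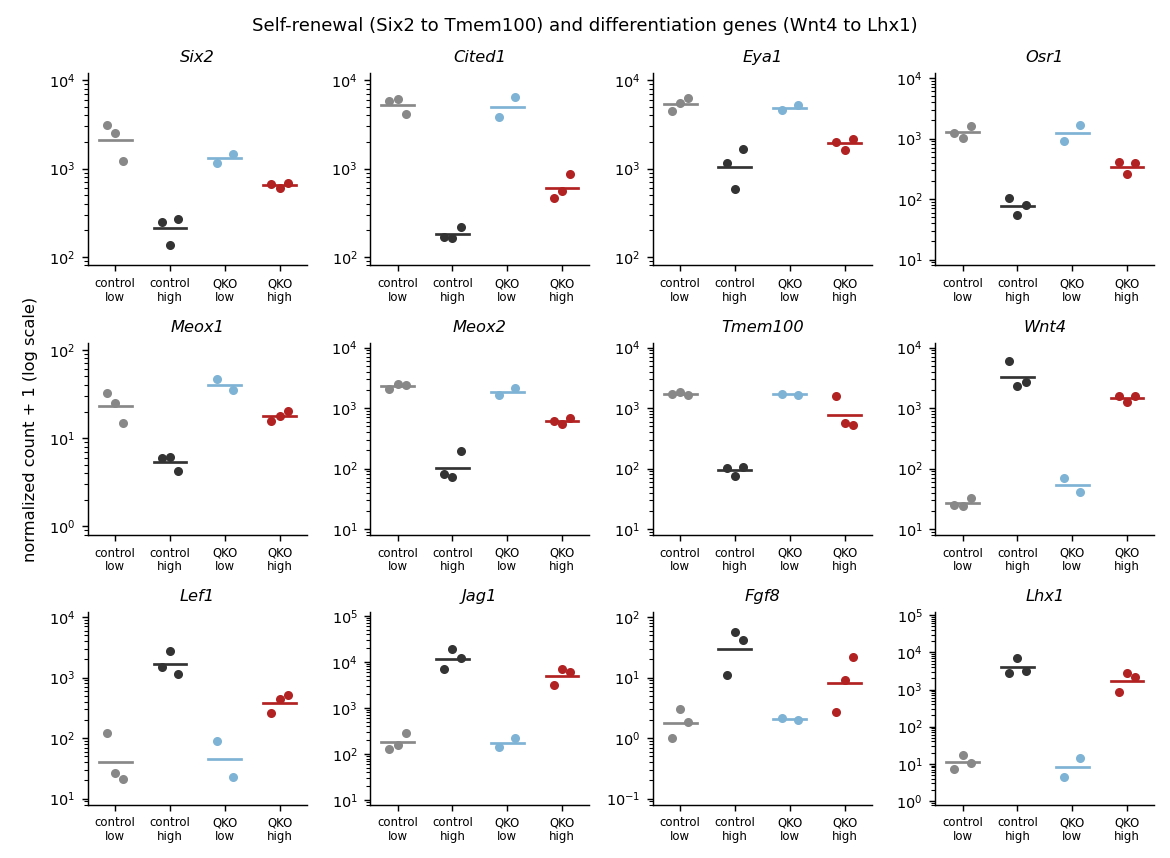
Normalized counts on a log axis of genes of the self-renewal and differentiation lists in the 4 groups of the table, with 1 point per library and a bar at the mean of log2(normalized count + 1). For *Six2*, *Cited1*, *Osr1* and *Meox2* the 3 QKO high CHIR points lie below control low and above control high CHIR, and for *Wnt4*, *Jag1* and *Lef1* they lie above control low and below control high CHIR.

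Most differentiation genes rose. Of the 5 members of the differentiation list, 4 rose (5 with the replicate block), where 4.03% of all genes tested did (8.26% with the block). The list's median was 4.82 in log2. The member *Lef1* was given above. In control high CHIR all 5 rose, with a median of 6.03. *Wnt4* (ENSMUSG00000036856, chr4:137277489-137299726), the ligand that drives the mesenchyme to become epithelium, went from 24.5, 22.7 and 31.1 normalized counts in control low CHIR to 1571, 1254 and 1553 in QKO high CHIR (log2 5.76 ± 0.32 SE, limma adjusted p = 1.95e-06). Control high CHIR reached 5906, 2331 and 2663, so every QKO library was below every control library at the same dose, and the difference passed only with the replicate block (log2 -1.19, limma adjusted p = 0.0792 without it and 0.0154 with it). *Jag1* (ENSMUSG00000027276, chr2:137081456-137116644), the Notch ligand of the forming nephron, went from 125, 159 and 286 to 3139, 6952 and 5913 (log2 4.82 ± 0.40 SE, limma adjusted p = 3.54e-05). In control high CHIR *Jag1* was at 7179.9, 18709 and 12083, again above each QKO value (log2 -1.22, limma adjusted p = 0.164 without the block and 0.00691 with it). *Lhx1* (ENSMUSG00000018698, chr11:84518284-84525535), a homeobox gene needed for the renal vesicle, went from 6.12, 16.8 and 9.51 to 844, 2809.7 and 2188 (log2 7.30 ± 0.56 SE, limma adjusted p = 2.02e-05). Its control high CHIR values, 2762, 7241 and 3135, overlapped those of the QKO cells (log2 -1.20, limma adjusted p = 0.361 without the block and 0.0175 with it). Of the 5 members, 0 were called lower than in control high CHIR by limma without the block, and 4 with it, *Wnt4*, *Jag1*, *Lhx1* and *Lef1* (adjusted p = 0.0476). *Fgf8*, which supports survival of the nascent nephron, was close to the detection limit in control low CHIR at 0, 1.97 and 0.865, and at 1.74, 8.31 and 21.2 in QKO high CHIR. Replicate 3 was highest and replicate 1 was inside the control range, and the gene passed only with the replicate block (limma adjusted p = 0.131 without it and 0.0289 with it).

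The genes with the largest rises were ranked among 495 called genes that averaged 50 or more normalized counts over the 6 libraries and had groups that did not overlap. Over all genes tested, QKO high CHIR lay wholly above control low CHIR for 15.6% and wholly below for 12.9%. The first 12 were *Lhx1os*, *Lhx1*, *Krt23*, *Clec18a*, *Emx2*, *Heyl*, AC141471.4, *Sv2b*, *Gm35455*, *Mmp9*, *Lama4* and *Wnt4*. *Krt23*, a keratin (ENSMUSG00000006777, chr11:99477974-99493137), was at 0 in all 3 control low CHIR libraries and at 54.8, 207 and 117 in QKO high CHIR, at least 34.4-fold higher on the mean when 3 reads per library are taken as the limit that a count of 0 allows. *Emx2* (ENSMUSG00000043969, chr19:59458372-59465357), a homeobox gene required for kidney formation, went from 2.45, 1.97 and 0.865 to 80.8, 445 and 359.6 (log2 6.46 ± 0.61 SE, limma adjusted p = 9.34e-05). Its antisense neighbour *Emx2os* and *Lhx1os* beside *Lhx1* also rose, but the library kit does not mark strand, so reads of each pair cannot be told apart where they overlap. *Heyl* (ENSMUSG00000032744, chr4:123233556-123249875), a transcriptional target of Notch, was at 29.4, 7.90 and 25.1 in control low CHIR and 1574, 1536 and 1484 in QKO high CHIR (log2 6.32 ± 0.43 SE, limma adjusted p = 7.62e-06). *Mmp9* (ENSMUSG00000017737, chr2:164940780-164955850), a matrix metalloproteinase, rose from 11.01, 7.90 and 4.32 to 626, 837 and 327 (log2 6.07 ± 0.54 SE, limma adjusted p = 5.4e-05). *Lama4* (ENSMUSG00000019846, chr10:38965515-39110188), a laminin chain of basement membranes, rose from 102, 80.9 and 128 to 4368, 7395 and 5521 (log2 5.78 ± 0.27 SE, limma adjusted p = 1.34e-06). *Heyl* and *Lama4* in QKO high CHIR were higher than in every control high CHIR library, at 1134, 541 and 941 and 2329, 2430.2 and 3083. *Clec18a* (ENSMUSG00000033633, chr8:111058920-111092426), a C-type lectin, was at 14.7, 5.92 and 6.92 against 807, 1236 and 955 (log2 6.70 ± 0.36 SE, limma adjusted p = 1.54e-06), and control high CHIR, at 1245, 765 and 905, overlapped the QKO cells.

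The 12 largest falls, ranked among 395 genes by the same rule, were *Sst*, *Ch25h*, *Col9a1*, *Chl1*, *Rgs2*, *Il33*, *Pla1a*, *Itih2*, *Robo2*, *Hlf*, *Cyp2s1* and *Apom*. *Il33* (ENSMUSG00000024810, chr19:29925114-29960718), a nuclear cytokine, was among the most abundant of them, at 14469, 16829 and 9579.5 normalized counts in control low CHIR and 1120.4, 769 and 450.3 in QKO high CHIR (log2 -4.18 ± 0.32 SE, limma adjusted p = 2.02e-05). *Robo2* (ENSMUSG00000052516, chr16:73891839-74411825), the Slit receptor that limits where the ureteric bud forms, fell from 5007, 7952 and 8839 to 595, 501 and 982 (log2 -3.41 ± 0.29 SE, limma adjusted p = 3.82e-05). *Rgs2* (ENSMUSG00000026360, chr1:143999338-144004161), a regulator of G-protein signaling, fell from 2565, 3685 and 4501 to 303, 149 and 148 (log2 -4.20 ± 0.41 SE, limma adjusted p = 0.000103). For all 3 genes the lowest control low CHIR library was several times the highest QKO high CHIR library. *Sst* (ENSMUSG00000004366, chr16:23889573-23890958), the hormone somatostatin, spread most within its groups, at 235, 1790.3 and 747 in control low CHIR against 0.869, 15.6 and 23.1 (log2 -6.23 ± 0.99 SE, limma adjusted p = 0.00292). *Ch25h* (ENSMUSG00000050370, chr19:34473778-34475164), which makes 25-hydroxycholesterol, fell from 971, 1148 and 930.2 to 36.5, 8.31 and 25.1 (log2 -5.60 ± 0.44 SE, limma adjusted p = 2.2e-05), while control high CHIR was at 1.65, 1.01 and 1.06. In QKO low CHIR, *Il33* was at 7859 and 6510, *Rgs2* at 841 and 2184 and *Ch25h* at 387 and 702, below every control low CHIR value. None of these was called in QKO low against control low CHIR (limma adjusted p = 0.904 each). *Robo2*, at 3778 and 6607, and *Sst*, at 158 and 923 in QKO low CHIR, overlapped control low CHIR. The falls of *Chl1* and *Pla1a* depended on single libraries. *Chl1* lost its call without control low CHIR replicate 2 (adjusted p = 0.0556). *Pla1a* lost it without control low CHIR replicate 1 or 2 or QKO high CHIR replicate 2 or 3 (adjusted p from 0.061 to 0.0662).

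Genes that respond to CHIR were then taken from the wild-type NPC libraries of the series, which share no library with the Tcf/Lef table. Their labels say wild type and name no guide. The Tcf/Lef libraries came from transfected, mCherry-sorted Cas9 NPCs after a knockout period. Differences between the tables were not tested. Of the 590 tested genes that rose at least 2-fold in wild-type NPCs from low to high CHIR, 186 rose and 5 fell in QKO high against control low CHIR, or 31.5% and 0.847%, beside 4.03% and 2.78% of all genes tested. Their median was 0.92 in log2, and in control high against control low CHIR it was 1.43, with 349 that rose and 6 that fell. Of the 595 tested genes that fell in the wild type, 172 fell and 13 rose in QKO high CHIR, or 28.9% and 2.18%, with a median of -0.76. Control high CHIR gave 388 that fell, 4 that rose and a median of -1.54. Some genes named for large changes went the other way in the wild type. *Sst* rose there (log2 3.99, limma adjusted p = 0.00735), and *Dll1* (-1.45, 0.0298) and *Car4* (-1.91, 0.00294) fell. In control high against control low CHIR these 3 went as in the QKO cells, at -5.99, 3.23 and 2.73. Of the 12 largest rises, *Heyl*, *Lama4*, *Clec18a* and *Mmp9* did not pass in the wild type (log2 0.31, 0.012, 0.74 and 1.01). Nor did *Lhx1*, *Lhx1os* and *Emx2* (log2 1.65, 2.06 and 3.21, limma adjusted p = 0.484, 0.304 and 0.117), and *Gm35455* was not tested there. *Krt23*, AC141471.4, *Sv2b* and *Wnt4* rose there too. Of the 12 largest falls, *Robo2*, *Chl1*, *Pla1a* and *Cyp2s1* did not pass there (log2 -2.47, 0.93, -1.74 and -0.81). The difference between QKO and control in high CHIR had a median of -0.61 over the first set, with 3 genes higher and 44 lower, and 0.73 over the second, with 142 higher and 0 lower in limma. With the replicate block the QKO high CHIR counts were 297 higher of the first set and 279 lower of the second, where 8.26% and 7.19% of all genes tested were called. Leaving out control low CHIR replicate 3 gave 225 and 254, and leaving out all libraries numbered 1 gave 157 and 93. Over all genes tested, the counts without control low CHIR replicate 3 were 1326 higher and 1469 lower.

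**Figure D3:**
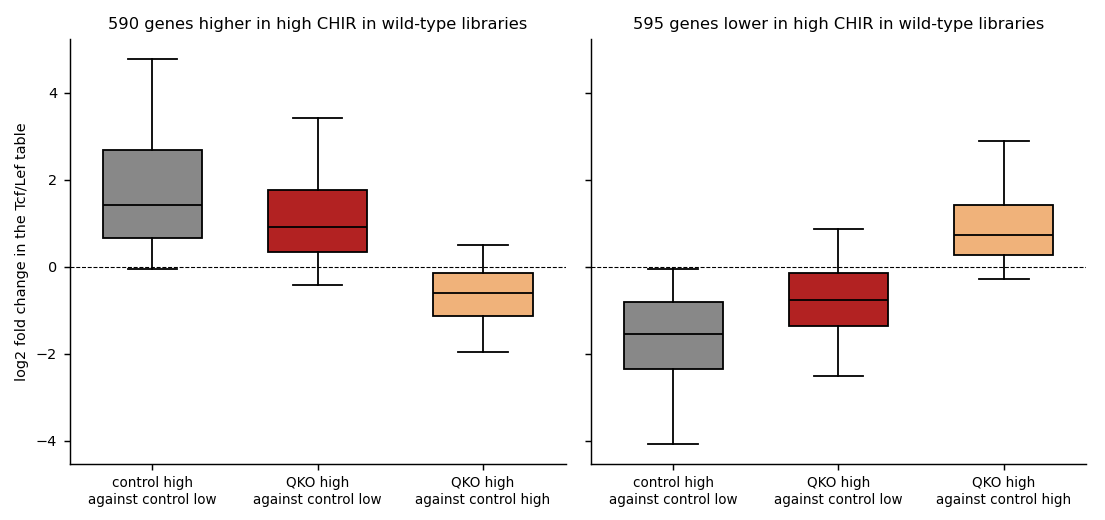
Log2 fold changes of the 590 and 595 genes picked in wild-type NPCs, as boxes of the quartiles with a line at the median and whiskers from the 5th to the 95th percentile, for control high and QKO high against control low CHIR and for QKO against control in high CHIR. The medians in QKO high CHIR, 0.92 and -0.76, lie on the same side of 0 as the control medians, 1.43 and -1.54, and nearer to 0.

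The 10 genes with the largest rise and the 10 with the largest fall in control high against control low CHIR were looked at in the QKO cells. The 10 rises were *Lhx1*, *Lhx1os*, *Krt23*, *Emx2*, *Emx2os*, AC141471.4, *Sv2b*, *Psd2*, E330013P04Rik and *Syk*. Both comparisons use the same 3 control low CHIR libraries. The genes were picked by their control high CHIR values, so QKO against control in high CHIR is given for them without a test. The log2 fold changes of these 10 ran from 6.95 (*Syk*) to 9.02 (*Krt23*) in control high CHIR and from 4.78 (*Psd2*) to 8.04 (*Lhx1os*) in QKO high CHIR, all called. *Psd2* (ENSMUSG00000024347, chr18:35964830-36014715) was at 7.34, 2.96 and 0.865 in control low CHIR, 101, 132 and 93.5 in QKO high CHIR and 1118, 699.8 and 313 in control high CHIR. Every QKO high CHIR value of *Psd2* was below every control high CHIR value. The 10 falls were *Ch25h*, *Il33*, *Matn1*, *Fgf1*, *Col9a1*, *Sst*, *Ntsr1*, BC030500, *Pamr1* and *Chl1*. Theirs ran from -8.83 (*Ch25h*) to -5.07 (*Chl1*) in control high CHIR. In QKO high CHIR *Ch25h*, *Il33*, *Fgf1*, *Col9a1*, *Sst* and *Chl1* were called lower, from -6.23 (*Sst*) to -2.80 (*Fgf1*), and the other 4 were not called. *Pamr1* (ENSMUSG00000027188, chr2:102550012-102643041) did not pass, at 153, 75.99 and 65.7 in control low and 172, 65.4 and 80.03 in QKO high CHIR (log2 0.079 ± 0.62 SE, limma adjusted p = 0.953), while control high CHIR held 4.94, 1.01 and 0. *Ntsr1* (ENSMUSG00000027568, chr2:180499976-180544980), the neurotensin receptor, was at 515, 1201 and 1016 against 146, 536 and 734 (log2 -1.15 ± 0.70 SE, limma adjusted p = 0.338), and at 8.24, 8.09 and 38.3 in control high CHIR. *Matn1* (ENSMUSG00000040533, chr4:130944385-130955475), a matrilin of cartilage matrix, was at 78.3, 277 and 312 against 21.7, 74.8 and 113 (log2 -1.71 ± 0.67 SE, limma adjusted p = 0.147) and passed with the replicate block (adjusted p = 0.00224). For *Pamr1*, *Ntsr1*, *Matn1* and BC030500 every QKO high CHIR library was above every control high CHIR library.

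Of the 21 tested feedback genes and canonical targets of the Wnt pathway, 10 rose in QKO high CHIR, 47.6% (11 rose and 2 fell with the replicate block). The list's median was 1.03 in log2. Over all genes tested 4.03% rose and 2.78% fell, and 8.26% and 7.19% with the block, which applies to each list below as well. In control high CHIR 12 rose and 1 fell, and the median was 1.74. The 10 were *Axin2*, *Lgr6*, *Znrf3*, *Sp5*, *Kremen1*, *Tnfrsf19*, *Ccnd1*, *Ccnd2*, *Bmp4* and *Lef1*. *Axin2*, the scaffold of the β-catenin destruction complex and the usual reporter of the pathway, was at 83.2, 78.95 and 56.2 in control low CHIR and 156, 192 and 191 in QKO high CHIR (log2 1.30 ± 0.32 SE, limma adjusted p = 0.0293). Its groups did not overlap, but the call was lost on leaving out any single library of the 2 groups other than control low CHIR replicate 3. The adjusted p then reached up to 0.118, without QKO high CHIR replicate 2, and in edgeR it was 0.0526. *Ccnd1* (ENSMUSG00000070348, chr7:144929931-144939925), cyclin D1, rose from 189.6, 90.8 and 93.4 to 4051, 5856 and 5934 (log2 5.46 ± 0.32 SE, limma adjusted p = 2.7e-06). *Ccnd2*, cyclin D2, rose from 4864, 3055 and 1616 to 22045, 18430.5 and 18276 (log2 2.76 ± 0.38 SE, limma adjusted p = 0.00119). *Znrf3*, a ligase that removes Frizzled receptors from the cell surface, rose from 1065, 1213 and 1396 to 2368, 2558 and 2533 (log2 1.03 ± 0.12 SE, limma adjusted p = 0.000468). *Nkd1*, another feedback inhibitor, did not pass, with means of 51.3 and 73.4 (log2 0.51 ± 0.39 SE, limma adjusted p = 0.462).

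Promoters of the self-renewal, differentiation and Wnt feedback lists were searched for the Tcf/Lef words CTTTGAT and CTTTGAA on both strands, from 250 bases before to 50 after the start of RefSeq transcripts (GRCm38.p6). Of the called genes of the Wnt feedback list, *Sp5*, a transcription factor gene known as a direct target, and *Tnfrsf19*, a receptor gene of the TNF family, had a match. The 29 bases around each are shown, on the strand of the gene, with the word in capitals.
Sp5, chr2:70474808-70474836 (+): ggcaaggccccCTTTGATcaggaaaatcc
Tnfrsf19, chr14:61038172-61038200 (-): ctgaatgggggATCAAAGtgacaaactag
The *Sp5* word lay 104 bases before the start and the *Tnfrsf19* word, which reads on the opposite strand, 202 bases before it. *Tnfrsf19* rose from 163, 86.8 and 158 to 666, 436 and 468 (log2 1.97 ± 0.31 SE, limma adjusted p = 0.00282). *Sp5* was low, at 0, 2.96 and 2.59 in control low CHIR and 5.22, 28.04 and 41.5 in QKO high CHIR (log2 3.02 ± 0.78 SE, limma adjusted p = 0.0379), and its call was lost without control low CHIR replicate 1 or 2 or QKO high CHIR replicate 2 or 3 (adjusted p from 0.0682 to 0.151). *Dkk1* and *Mycn* also had a match and did not pass (log2 -0.55, limma adjusted p = 0.825, and -0.068, 0.855). Either word stood in 8.65% of all such windows, in 5.77% of those of tested genes, in 5.5% of 618 windows of higher genes and in 5.28% of 436 windows of lower genes.

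Of the 22 tested Wnt ligands, receptors and secreted inhibitors, 5 rose and 5 fell, 22.7% each, beside 4.03% and 2.78% of all genes tested (5 and 8 with the replicate block). Beside *Wnt4*, the inhibitors *Sfrp2* and *Dkk2* and the receptors *Fzd6* and *Fzd10* rose. *Sfrp2* (ENSMUSG00000027996, chr3:83766321-83774316) went from 42.8, 81.9 and 147 to 337, 686 and 1088 (log2 2.96 ± 0.58 SE, limma adjusted p = 0.00957). *Dkk2* (ENSMUSG00000028031, chr3:132085292-132180304) was at 56.3, 14.8 and 18.2 in control low CHIR, 313, 227 and 195 in QKO high CHIR and only 11.5, 9.10 and 9.57 in control high CHIR (log2 3.22 ± 0.70 SE, limma adjusted p = 0.0165 against control low CHIR). Its call was lost without control low CHIR replicate 2 and without QKO high CHIR replicate 1 or 2 (adjusted p from 0.0559 to 0.0813). *Fzd2* (ENSMUSG00000050288, chr11:102604396-102608058), an abundant Frizzled receptor of these cells, fell from 3091, 2231 and 1365 to 913, 716 and 717 (log2 -1.44 ± 0.26 SE, limma adjusted p = 0.00685). *Fzd4*, *Fzd8*, the co-receptor *Lrp6* and the ligand *Wnt5a* were the other 4 that fell, *Wnt5a* from 314, 335 and 207 to 136, 73.7 and 64.6 (log2 -1.68 ± 0.42 SE, limma adjusted p = 0.0341). *Wnt5a* lost its call without control low CHIR replicate 1 or 2 or QKO high CHIR replicate 2 or 3 (adjusted p from 0.118 to 0.141) and *Fzd8*, close to the filter with means of 23.01 and 2.76, on leaving out any single library of the 2 groups other than control low CHIR replicate 3 (adjusted p from 0.0512 to 0.171).

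Some Notch pathway genes rose, among them ligands, a receptor and the Hey targets. Of 14 tested members, 6 rose (42.9%, beside 4.03% of all genes tested), and the median change in log2 was 0.37. *Dll1* (ENSMUSG00000014773, chr17:15367354-15376872), a Notch ligand of the proximal nephron segments, was at 6.12, 15.8 and 19.02 in control low CHIR and 218, 827 and 828 in QKO high CHIR (log2 5.31 ± 0.65 SE, limma adjusted p = 0.0005). In QKO low CHIR *Dll1* was at 37.2 and 73.3, above every control low CHIR value, and was not called (limma adjusted p = 0.904). *Notch1* rose from 170.0, 94.7 and 76.9 to 366, 538 and 465 (log2 2.06 ± 0.28 SE, limma adjusted p = 0.00114). *Hey1*, a target gene of the pathway, rose from 223, 189 and 170.3 to 2150.3, 1739 and 1843 (log2 3.30 ± 0.22 SE, limma adjusted p = 7.85e-06). *Jag1* and *Heyl* were given above, and *Hey2* was the last of the 6 (log2 2.64, limma adjusted p = 0.0173). The call on *Hey2* was lost without control low CHIR replicate 2 and without QKO high CHIR replicate 1 or 2 (adjusted p from 0.0643 to 0.0805). *Hes1* (log2 -0.59), *Lfng* (log2 -1.15) and *Notch2* (log2 -0.49) were fitted lower and not called. Of the 14 members 6 were fitted lower, and 4 were lower by an unadjusted limma p under 0.05. Without control low CHIR replicate 3, 6 members rose and 3 fell.

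Among 21 tested Fgf pathway genes, 3 fell (14.3%, beside 2.78% of all genes tested) and the median change in log2 was -0.39. *Fgf1* (ENSMUSG00000036585, chr18:38838673-38929472), a ligand, fell from 2347, 3492 and 2705 to 349, 435 and 432 (log2 -2.80 ± 0.36 SE, limma adjusted p = 0.000814), and control high CHIR held 21.4, 61.7 and 17.01. *Spry4* (ENSMUSG00000024427, chr18:38586247-38601415), a feedback inhibitor of receptor signaling, fell from 2327, 2395 and 2039 to 1053, 1229 and 1211 (log2 -0.95 ± 0.12 SE, limma adjusted p = 0.000489). *Etv1* (ENSMUSG00000004151, chr12:38779380-38870484), an Ets factor downstream of Fgf, fell from 2038, 2329 and 1937 to 995, 824 and 761 (log2 -1.29 ± 0.25 SE, limma adjusted p = 0.0084). With the block 2 members rose and 5 fell, and without control low CHIR replicate 3 the number that fell was 6.

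Of 21 tested BMP pathway genes, 5 rose and 1 fell (23.8% and 4.76%, beside 4.03% and 2.78% of all genes tested), although the median was -0.42. *Bmp2* (ENSMUSG00000027358, chr2:133552159-133562885) rose from 84.4, 95.7 and 77.8 to 575, 709 and 694 (log2 2.92 ± 0.29 SE, limma adjusted p = 0.000136) and *Bmp4* (ENSMUSG00000021835, chr14:46383520-46390669) from 159, 111 and 80.4 to 379, 509 and 432 (log2 1.95 ± 0.34 SE, limma adjusted p = 0.00495). The 3 QKO libraries of *Bmp4*, a ligand also counted in the Wnt list, exceeded those of control high CHIR, at 342, 176 and 228. The ligand *Bmp7*, the receptor *Bmpr1b* and *Id4*, a target of BMP signaling, were the others that rose. *Bmp7* was at 25.7, 46.4 and 56.2 in control low CHIR and spread widely in QKO high CHIR, at 165, 635 and 1102 (log2 3.55 ± 0.74 SE, limma adjusted p = 0.0132), a call lost without control low CHIR replicate 1 or QKO high CHIR replicate 2 or 3 (adjusted p from 0.0572 to 0.0648). *Id2*, abundant in every library, fell from 20983, 20142 and 25562 to 14979, 13432 and 16226 (log2 -0.58 ± 0.12 SE, limma adjusted p = 0.0164), a call lost without control low CHIR replicate 3, where the fall was under 0.5, and without QKO high CHIR replicate 2 (adjusted p = 0.0958). With the block 6 members fell, and without control low CHIR replicate 3 it was 4.

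Of 25 tested transcription factors of early nephron patterning, 9 rose and 3 fell (11 and 3 with the block), with a median of 1.25 in log2. That was 36% and 12%, beside 4.03% and 2.78% of all genes tested. In control high CHIR 16 rose and 5 fell, with a median of 2.06. *Ovol1* (ENSMUSG00000024922, chr19:5549136-5560646), a zinc-finger factor, rose from 11.01, 10.9 and 29.4 to 99.96, 197 and 222 (log2 3.34 ± 0.47 SE, limma adjusted p = 0.00149). *Pax8*, a paired-box factor of the induced mesenchyme, rose from 1020.0, 1573 and 2051 to 4663, 8586 and 9364 (log2 2.28 ± 0.35 SE, limma adjusted p = 0.00243). *Pax2* (ENSMUSG00000004231, chr19:44756045-44837871), its partner, rose from 389, 216 and 222 to 511, 771 and 984 (log2 1.46 ± 0.27 SE, limma adjusted p = 0.00698). *Sox9* (ENSMUSG00000000567, chr11:112782224-112787760) fell from 1113, 1469.5 and 848 to 311, 266 and 323 (log2 -1.90 ± 0.20 SE, limma adjusted p = 0.000192), and control high CHIR was still lower, at 226, 239 and 197. The falls of *Foxc1* and *Tcf21* rested on single libraries, since *Foxc1* lost its call without control low CHIR replicate 2 (adjusted p = 0.0522) and *Tcf21* without control low CHIR replicate 1 or QKO high CHIR replicate 2 (adjusted p = 0.058 and 0.0736).

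Genes of epithelial junctions, polarity and basement membrane rose in 5 of 26 cases (7 with the block), with a median of 0.50. That was 19.2%, beside 4.03% of all genes tested. *Lamb1* (ENSMUSG00000002900, chr12:31265234-31329644), a laminin chain, rose from 1326, 1056 and 1230.2 to 7437, 10777 and 9959 (log2 2.95 ± 0.19 SE, limma adjusted p = 6.41e-06). *Cdh6* (ENSMUSG00000039385, chr15:13028701-13173675), the cadherin of the early nephron, rose from 375, 288 and 388 to 1433, 1998 and 1977 (log2 2.35 ± 0.20 SE, limma adjusted p = 3.82e-05). *Krt18*, *Cdh3* and *Cldn7* also rose, and *Cdh1*, the cadherin of mature epithelium, was near the filter with means of 10.2 and 13.1 and did not pass (limma adjusted p = 0.76). *Krt18* is also a marker of the ureteric list, whose sum was higher in QKO high CHIR, as given above. Of 21 genes of mesenchymal adhesion and matrix, 3 rose and 5 fell, 14.3% and 23.8%, beside 4.03% and 2.78% of all genes tested (4 and 9 with the block). *Cdh11* (ENSMUSG00000031673, chr8:102632095-102785642), a mesenchymal cadherin, fell from 9975, 8109 and 4639.8 to 2619.7, 2089.8 and 2358 (log2 -1.62 ± 0.28 SE, limma adjusted p = 0.00443). *Itga4*, an integrin chain, fell by more on the log2 scale (log2 -2.56 ± 0.53 SE, limma adjusted p = 0.0124), a call lost without control low CHIR replicate 2 (adjusted p = 0.0549). *Snai2* (ENSMUSG00000022676, chr16:14705852-14709385), a repressor of epithelial genes, fell from 3720.4, 2919 and 1985 to 807, 357 and 363 (log2 -2.56 ± 0.36 SE, limma adjusted p = 0.00143). *Vim* (ENSMUSG00000026728, chr2:13573927-13582826), vimentin, fell from 22804, 20291 and 19923 to 6846, 6043 and 8909 (log2 -1.55 ± 0.18 SE, limma adjusted p = 0.000359), under all control high CHIR values, at 13565, 9080.5 and 11274. *Ncam1* (ENSMUSG00000039542, chr9:49502136-49798925), an adhesion molecule that renal vesicles also make, went the other way, from 16259.9, 15428 and 22515 to 32669.8, 40859 and 40126 (log2 1.08 ± 0.19 SE, limma adjusted p = 0.00539). *Timp3*, an inhibitor of metalloproteinases, was at 536, 449 and 322 against 1566, 1704 and 902 (log2 1.65 ± 0.45 SE, limma adjusted p = 0.0497), just past the threshold, and lost its call when any of the 6 libraries was left out.

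**Figure D4:**
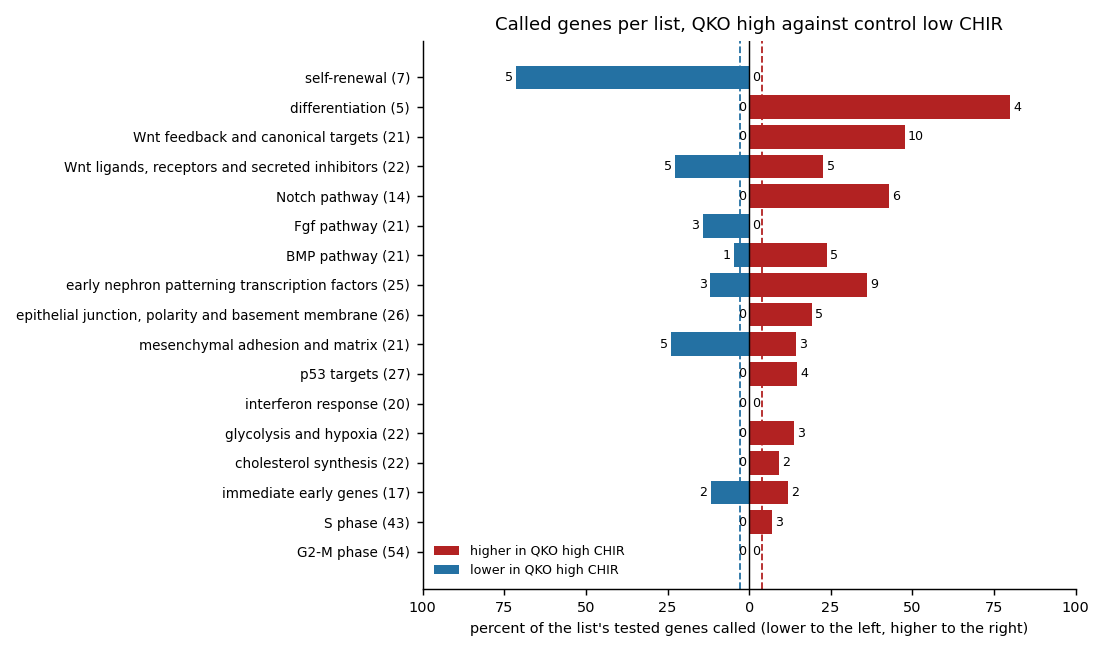
Percent of the tested members of each gene list called higher or lower in QKO high against control low CHIR (limma), with the number called at each bar and dashed lines at 4.03% and 2.78%, the shares over all genes tested. The differentiation list has 4 of 5 members higher and the self-renewal list 5 of 7 lower, and 10 of 21 Wnt feedback genes are higher.

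The next lists stand beside 4.03% higher and 2.78% lower over all genes tested, and 8.26% and 7.19% with the block. Without control low CHIR replicate 3 the counts over all genes tested were 1326 and 1469, so both of these fits also raised the counts over all genes. Of 27 p53 targets, 4 rose (14.8%), namely *Cdkn1a*, *Pmaip1*, *Perp* and *Gdf15* (8 with the block, 14 without control low CHIR replicate 3, 2 without all libraries numbered 1). In control high against control low CHIR 2 of the list rose and 8 fell, where 6.98% and 7.96% of all genes tested did. Against control high CHIR 11 were higher in QKO high CHIR, where 2.05% of all genes tested were. The call on *Pmaip1* was lost without QKO high CHIR replicate 2 (limma adjusted p = 0.0526). *Gdf15* (ENSMUSG00000038508, chr8:70629393-70632456), a stress-responsive cytokine, rose from 79.5, 93.8 and 133 to 373, 526 and 719 (log2 2.37 ± 0.31 SE, limma adjusted p = 0.000914), above control high CHIR at 185, 206 and 202. *Cdkn1a*, the cell cycle inhibitor p21, was at 1201, 1178 and 3442 in control low CHIR, where replicate 3 stood far above the others, and at 5180.3, 5746 and 5295 in QKO high CHIR (log2 1.67 ± 0.33 SE, limma adjusted p = 0.00999). That call was lost without control low CHIR replicate 2 and without QKO high CHIR replicate 2 (adjusted p = 0.0522 and 0.0518). *Mdm2*, the p53 ligase, did not pass, with means of 1216 and 1782 (log2 0.57 ± 0.16 SE, limma adjusted p = 0.058), except with the block (adjusted p = 0.0153). Of 43 S phase genes, 3 rose (6.98%), *Chaf1b* (log2 0.76), *Exo1* (log2 0.65) and *Tyms* (log2 0.54), each lost without at least 1 single library (8 with the block, 12 without control low CHIR replicate 3, 0 in limma without all libraries numbered 1). Of 54 G2-M phase genes, 0 passed in limma or edgeR. By unadjusted p under 0.05 it was 6 higher and 1 lower, in DESeq2 1 lower, with the block 4 higher and 1 lower, and without control low CHIR replicate 3 it was 8 and 1. Of 20 interferon response genes, 0 passed in limma, edgeR and DESeq2 (2 higher and 3 lower by unadjusted p under 0.05, 1 and 2 with the block). Of 22 glycolysis and hypoxia genes 3 rose, 13.6% (4 with the block, 5 without control low CHIR replicate 3, 1 without all libraries numbered 1). They were *Ndrg1* (log2 1.66), *Eno1* (log2 0.70) and *Pkm*, pyruvate kinase, from 11769, 10870.0 and 15891 to 22969.8, 23746 and 25898 (log2 0.93 ± 0.17 SE, limma adjusted p = 0.00642). Of 17 immediate early genes 2 rose, *Fos* (log2 1.45) and *Jun* (log2 1.01), and 2 fell, *Egr2* (log2 -1.64) and *Klf6* (log2 -0.88), 11.8% each way, with 7 and 2 under the block. All of these but *Pkm* lost their call without at least 1 single library, and *Jun* whichever of the 6 was left out.

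Some genes did not lie between the 2 controls. Of the 495 higher genes ranked above, 130 were also higher in all 3 QKO high CHIR libraries than in all 3 control high CHIR libraries, and of the 395 lower genes 31 were also lower than all of them. Over all genes tested, QKO high CHIR lay wholly above control high CHIR for 11.1% and wholly below for 8.8%. The 495 and 395 genes were picked by the same QKO high CHIR values, which by itself raises their counts. No excess can be read from these numbers. The 8 largest rises of the first kind were *Heyl*, *Gm35455*, *Lama4*, AU021092, *Ccnd1*, *Ackr3*, *Dll1* and *Car4*. *Ccnd1*, at 1225, 2219.8 and 2126 in control high CHIR, was higher in the QKO cells (log2 1.53, limma adjusted p = 0.0285). *Car4* (ENSMUSG00000000805, chr11:84957786-84966044), a carbonic anhydrase, was at 17.1, 56.3 and 51.9 in control low, 228, 204 and 337 in control high and 1105, 1757 and 1566 in QKO high CHIR (log2 2.53 against control high CHIR, limma adjusted p = 0.0218). *Gm35455* (ENSMUSG00000116655, chr17:15152159-15173058), a non-coding RNA, was nearly absent from both controls, at 0, 0 and 2.59 and 0, 1.01 and 14.9, and at 67.8, 131 and 141 in QKO high CHIR (limma adjusted p = 0.0109 against control high CHIR). These 3 passed against control high CHIR, and the other 5 did not, except that *Dll1*, *Ackr3* and *Lama4* passed with the replicate block (adjusted p = 0.00061, 0.0172 and 0.0318). *Dll1* was at 48.6, 205 and 190.3 in control high CHIR (log2 2.09, limma adjusted p = 0.136). *Ackr3* (ENSMUSG00000044337, chr1:90203980-90216751), a chemokine receptor, was at 67.3, 9.87 and 11.2 in control low, 358, 112 and 259 in control high and 1022, 832 and 673 in QKO high CHIR (log2 1.92, limma adjusted p = 0.209).

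The 8 largest falls of this kind were *Kitl*, *Hoxd12*, *Cables1*, *Vim*, *Cdkn1c*, *Gstm7*, *Hoxd9* and *Syap1*. *Hoxd9* (ENSMUSG00000043342, chr2:74697727-74700208), a posterior homeobox gene, was at 534, 394 and 373 in control low CHIR and 462, 393 and 338 in control high CHIR, which overlapped, and at 179.9, 165 and 214 in QKO high CHIR. It was the only one of the 8 that passed against control high CHIR (log2 -1.09, limma adjusted p = 0.0151) without the replicate block. With the block *Vim*, *Gstm7* and *Syap1* passed too (adjusted p = 0.0202, 0.0399 and 0.0192). *Kitl* (ENSMUSG00000019966, chr10:100015630-100100416), the ligand of the Kit receptor, fell from 1118, 1094 and 1859 to 294, 302 and 282 (log2 -2.16 ± 0.30 SE, limma adjusted p = 0.00144), with 307, 778 and 485 in control high CHIR. *Cdkn1c* (ENSMUSG00000037664, chr7:143458339-143461050), the cell cycle inhibitor p57, fell from 227, 212 and 415 to 123, 79.98 and 96.4 (log2 -1.46 ± 0.27 SE, limma adjusted p = 0.00676). The calls of *Cables1* and *Syap1* against control low CHIR were lost without several single libraries (adjusted p from 0.103 to 0.139 and from 0.0707 to 0.15).

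**Figure D5:**
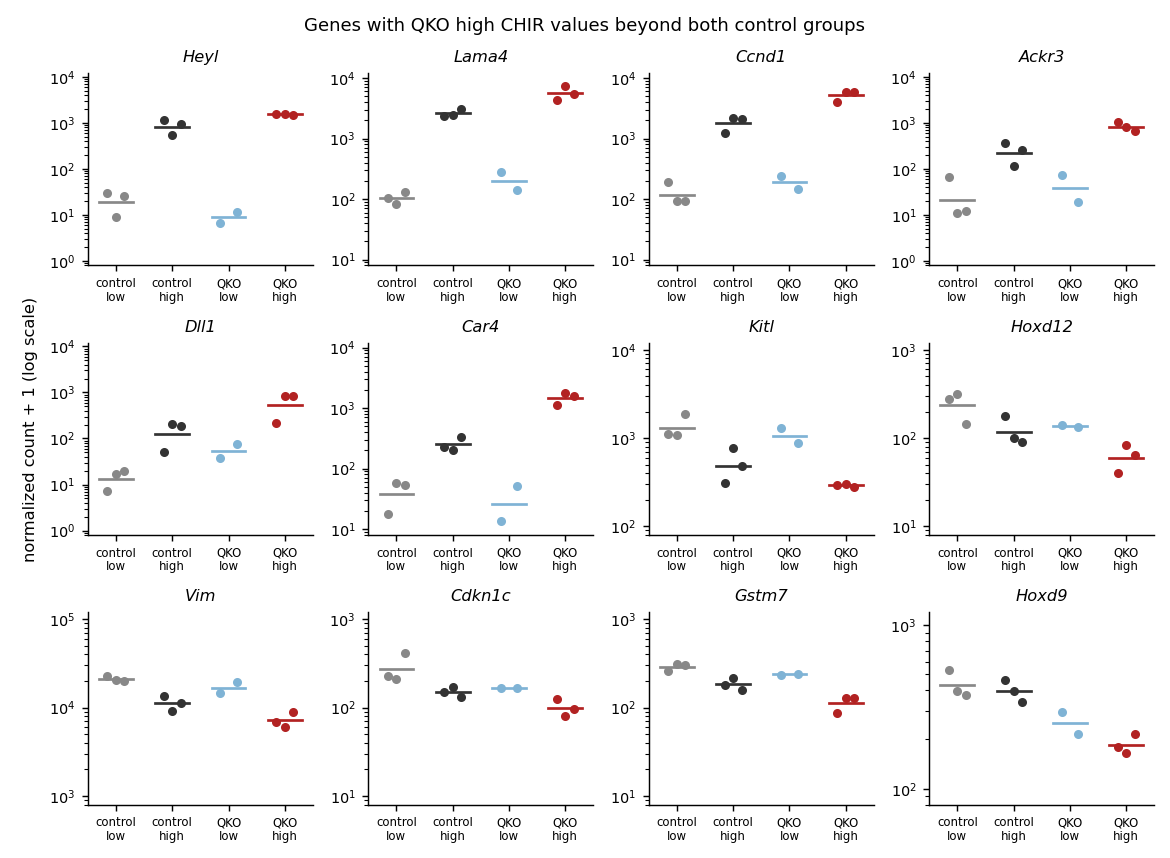
Normalized counts on a log axis, 1 point per library and a bar at the mean of log2(normalized count + 1), of genes whose QKO high CHIR values lay beyond both controls. *Ccnd1*, *Car4* and *Dll1* are above and *Hoxd9*, *Kitl* and *Vim* below all 6 control libraries.

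The other table of the series removed β-catenin itself (*Ctnnb1*) and shares no library with the Tcf/Lef table. Cas9 NPCs with *Ctnnb1* guides in high CHIR against GFP-guide NPCs in low CHIR, 2 libraries each, had 83 genes higher and 24 lower (limma, 0.495% and 0.143% of 16780 tested). Of the 80 and 24 that were tested in both tables, 45 were also higher and 13 also lower in QKO high against control low CHIR. That is 56.2% and 54.2% of the β-catenin lists, and 7.65% and 2.97% of the 588 and 438 genes called here. These 588 and 438 were called among 15088 genes tested in both tables. Over all genes tested here, 4.03% were higher and 2.78% lower. The comparisons of both tables set high against low CHIR, and the part of the dose in the overlap was not tested. Cre removal of *Ctnnb1* used NPCs homozygous for its conditional allele (*Ctnnb1* c/c) in place of Cas9 NPCs. With Cre in high against no Cre in low CHIR, 104 genes were higher and 53 lower (0.62% and 0.316%). Of those tested in both tables, 34 of 95 higher genes (35.8%) and 22 of 50 lower genes (44%) were also called here, 5.78% and 5.02% of the genes called here. Called the opposite way were 2 genes higher and 5 lower here for Cre, and 2 and 1 for the guides. *Wnt4* had a log2 fold change of 6.58 with *Ctnnb1* guides and 5.32 with Cre, beside 5.76 in the QKO cells, and *Heyl* 5.22 and 3.98 beside 6.32. *Jag1* had 2.23 and 1.99 beside 4.82. All of these values passed (limma adjusted p up to 0.0198). *Lhx1* did not pass after either removal of β-catenin, at -0.25 and 0.38 (limma adjusted p = 0.919 and 0.836), beside 7.30 in the QKO cells. Nor did *Lef1*, at 0.98 and 0.61, or *Ccnd1*, at 0.46 and 0.52. *Six2* was at -0.30 and -0.73 and *Cited1* at -1.86 and -1.53, none past the threshold, beside -1.70 and -3.13 here. In that table's controls (GFP guide and no Cre), *Ccnd1* in high against low CHIR was at 0.51 and 0.45. Neither passed (limma adjusted p = 0.272 and 0.316), beside 3.93 in the Tcf/Lef controls. *Lhx1* was at 2.06 and 3.32 there, *Lef1* at 3.61 and 3.95 and *Cited1* at -6.98 and -7.02, all called. *Six2* was at -0.74 (adjusted p = 0.234) and -2.04 (0.00192). *Ccnd1* thus did not pass there even with β-catenin intact, so its values say nothing on β-catenin removal. The tables were normalized separately and differ in the number of libraries and in the knockout period before the change of dose, which was longer for Tcf/Lef, and the differences between them were not tested.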

How the data were processed

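Bulk RNA-seq libraries were made with a SMARTer Ultra Low kit and paired-end reads, in the Tcf/Lef experiment from NPCs sorted for mCherry. According to the methods, the authors aligned reads with STAR to mouse GRCm38 combined with human GRCh38 and counted uniquely aligned reads per gene with featureCounts. The deposited tables hold normalized counts, a signal that the values show to be each gene's read count divided by 1 factor per library. The tool that set this factor is not given in the sources used here. In 10 of the 11 Tcf/Lef libraries, the values were whole multiples of 1 read (100% within a tolerance of 0.01), which gave the depth per library. Gene identifiers were matched to GENCODE vM21, where 45 had no symbol. The authors' own comparison tables (log2 fold changes and p-values) and 50 further columns of per-library values in them were not used.

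Genes that averaged 10 or more normalized counts over 11 libraries were tested with limma 3.58.1 (R 4.3.3, variance trend) on log2(normalized count + 1), all 4 groups in 1 fit, and Benjamini-Hochberg adjustment over all genes tested. A fold change on this scale understates the change of low genes. A gene was called where its adjusted p was under 0.05 and its change was 0.5 or more in log2. SE is the standard error of the fitted difference. With 3 against 3 libraries an exact permutation test of a single gene cannot give a p under 0.1, so none is used. edgeR 4.0.16 (quasi-likelihood) and DESeq2 1.42.0 were run on the recovered reads of 10 libraries, since control high CHIR replicate 2 has 1 read worth so close to 1 that its recovery could not be checked. The limma fit was tested on simulated data.

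Same-numbered libraries deviated together (correlation over genes of 0.29, 0.214 and 0.294 for QKO high and control low CHIR, at most -0.022 between other numbers), so values from a second fit, blocked on replicate number, stand beside the calls and list counts of QKO high against control low CHIR that they change. Cell cycle lists came from Seurat 5.3.0.

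The genes named are the 4 targeted genes, the self-renewal and differentiation lists, the 12 largest rises and falls and the 8 largest beyond both controls (adjusted p under 0.05, mean of at least 50, groups apart), the 3 largest called genes of every other list in each direction (1 list is not reported here), and the 10 largest CHIR responses of the controls in each direction. *Sall1*, *Wt1*, *Axin2*, *Znrf3*, *Ccnd2*, *Sp5*, *Tnfrsf19*, *Nkd1*, *Notch1*, *Hey1*, *Hey2*, *Pax8*, *Cdkn1a* and *Mdm2* and the further list members named without full statistics were added for their roles after their values were seen. The comparison, the members and the lists were chosen with earlier results of these data known. Genomic positions are on GRCm38.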

Additional observations from a re-analysis of the deposited data

Results flagged for a closer look

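For 5 of the genes named, the response to CHIR differed between QKO and control cells by a test of the difference itself (limma interaction term, adjusted over all genes tested). The response in QKO minus the response in control, in log2, was 4.40 for *Il33* (adjusted p = 0.00634), 4.19 for *Ch25h* (0.0424), 3.79 for *Fgf1* (0.0288), 3.06 for *Tmem100* (0.0444) and 2.86 for *Meox2* (0.0424). All 5 fell less in the QKO cells, and the term rests on 2 QKO low CHIR libraries. *Il33*, *Ch25h* and *Fgf1* were also picked by their falls in control high CHIR, whose values enter the term. Over all genes tested the term was called for 17 genes above and 3 below 0 (98 and 38 with the replicate block).

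Blood markers, which no comparison uses, summed to 3041 normalized counts in 1 control high CHIR library and to at most 151 in the QKO low, 109 in the control low and 47.8 in the QKO high CHIR libraries. Leaving that library out gave 619 higher and 451 lower genes in QKO high against control low CHIR.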

How the results depend on the processing

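The counts of 640 higher and 442 lower genes moved most with the replicate block (1311 and 1141) and with single libraries left out (298 to 1326 higher and 182 to 1469 lower), the high ends without control low CHIR replicate 3. Without all libraries numbered 1, an alternative chosen after seeing the data, they were 420 and 156. DESeq2 gave 903 lower genes, and requiring a change of 1 or more in log2 gave 279. The counts stayed within 1.5 times under the other alternatives (pseudocounts of 0.5 and 5, no filter, a minimum mean of 50, only the 6 libraries, TMM, edgeR). TMM shifted the median by -0.014. Single genes that changed sign had no call to begin with: *Pamr1* (0.45 to -0.33 over single libraries left out, with -0.053, -0.16 and -0.33 without control low CHIR replicates 2 and 3 and QKO high CHIR replicate 1), *Wt1* (-0.54 to 0.12, the latter without control low CHIR replicate 1) and *Sall1* (-0.19 to 0.083, with 0.017, 0.015 and 0.083 without control low CHIR replicates 1 and 2 and QKO high CHIR replicate 1, and 0.15 without all libraries numbered 1). The block ended no call of a named gene. The low genes, such as *Sp5*, *Fgf8* and *Fzd8*, rest on few reads per library.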
